A study of Mus musculus with 10 samples.

Results

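The dual-specificity MAP kinase phosphatases (genes with the symbol Dusp) were examined in CD8+ dendritic cells (DCs) of the mouse spleen. The members were the rows of the deposited mRNA table with the symbols Dusp1, Dusp2, Dusp4, Dusp5, Dusp6, Dusp7, Dusp10 and Dusp16, and 8 of 8 were found among 10767 genes. These enzymes remove phosphate from both the threonine and the tyrosine of the activation loop of a MAP kinase and thereby switch it off. They differ in where they act and in the kinase they prefer. Dusp1, Dusp2, Dusp4 and Dusp5 are nuclear and are encoded by genes that stimulated cells induce rapidly. Dusp6 and Dusp7 are cytoplasmic and prefer ERK, while Dusp10 and Dusp16 prefer the stress kinases JNK and p38. In DCs and macrophages, p38, JNK and ERK carry signals from Toll-like receptors, and Dusp1 is a known brake on the cytokine response to these signals.

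Libraries were made from Ppef2+/+ and Ppef2-/- mice, 5 per genotype, from cells with the surface markers CD11c, MHCII and CD8 and without CD11b. Ppef2-/- mice carry a trap cassette inserted after exon 4 and before exon 5 of Ppef2, which encodes a calcium-binding protein phosphatase, and Ppef2+/+ mice carry the intact gene. The allele came from JM8A3.N1 embryonic stem cells injected into C57BL/6 oocytes, and the chimeras were crossed further to C57BL/6. It is constitutive, so that Ppef2 was missing in every cell of the animal and not in DCs alone. Mice were 8 to 13 weeks old, matched for sex and age and untreated, and 3 mice were pooled per library. Cells were sorted 5 times, and each sort gave 1 library of each genotype.

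Ppef2 itself was checked first. Its reads in sorts 1 to 5 numbered 212, 145, 95, 136 and 228 with the intact gene and 7, 8, 1, 0 and 2 with the trapped allele, so every library matched its label. These reads were calculated back from the deposited normalized counts, which was possible for 9615 genes and for 7 of the 8 members, all but Dusp1. Over these genes a library held 1396293 to 4408770 reads (median 2038957). The deposited values lack the mean of each sort. Unless said otherwise, a level below is the normalized count with the sort mean put back, that is, reads times the value of 1 read in that library. Of the markers of CD8+ cDC1, 14 of 14 had a value, among them Xcr1, Clec9a and Irf8. Of 7 B cell markers 2 had a value, which summed to 162 to 183 deposited normalized counts per library, and Cd79a and Pax5 had none. Of 7 T cell markers 1 had a value, of 28.1 to 51.3 deposited normalized counts, and Cd3e, Cd3d and Lck had none. In sorted cells of this kind, fewer cells of a type and less RNA per cell cannot be told apart.

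The windows in front of Dusp1, Dusp5 and Dusp10 are printed because Dusp1 was by far the most abundant member and Dusp5 and Dusp10 were the 2 members with the smallest p in the comparison between sorts. The 200 bases from 250 to 51 before the RefSeq start were searched on both strands for the cyclic AMP response element (TGACGTCA), its short form (TGACG), the AP-1 site (TGAGTCA or TGACTCA) and the CArG box, the site of serum response factor. Sequences are from RefSeq, build GRCm38.p6, written 5′ to 3′ along the gene, with the cyclic AMP response element of Dusp1 and the CArG boxes of Dusp5 in capitals.
Dusp1, chr17:26508523-26508722, minus strand: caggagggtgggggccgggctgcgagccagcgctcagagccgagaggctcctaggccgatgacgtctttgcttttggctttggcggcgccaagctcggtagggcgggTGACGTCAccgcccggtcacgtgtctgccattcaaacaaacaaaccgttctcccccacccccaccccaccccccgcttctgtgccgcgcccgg
Dusp5, chr19:53528895-53529094, plus strand: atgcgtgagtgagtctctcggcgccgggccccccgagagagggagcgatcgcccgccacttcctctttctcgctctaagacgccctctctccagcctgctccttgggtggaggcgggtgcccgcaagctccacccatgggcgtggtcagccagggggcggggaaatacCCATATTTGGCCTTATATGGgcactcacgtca
Dusp10, chr1:184034131-184034330, plus strand: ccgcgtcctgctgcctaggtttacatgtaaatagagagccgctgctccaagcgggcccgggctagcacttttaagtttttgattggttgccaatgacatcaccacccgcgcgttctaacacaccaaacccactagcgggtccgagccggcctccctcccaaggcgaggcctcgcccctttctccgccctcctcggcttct
The Dusp1 window held 1 cyclic AMP response element, from 143 to 136 bases before the start, and the Dusp5 window held 2 adjacent CArG boxes, from 82 to 63 bases before the start. For Dusp1 and Dusp5 this RefSeq start lies downstream of the GENCODE start given below, so distances from the latter are shorter. Counted on both strands, the short form was found 3 times in the Dusp1 window, the whole element included, and 1 time in that of Dusp5. The Dusp10 window held none of the 4 motifs. Among 32851 windows of the same length, 0.828% held a cyclic AMP response element, 1.16% a CArG box, 3.61% an AP-1 site and 12.7% the short form, which is also part of the whole element. Of the 7 members in the promoter table, Dusp2, Dusp6 and Dusp7 held none of the 4 motifs either, and Dusp16 held the short form once. A match of letters is a description of the sequence and does not show that a factor binds there.

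Levels of different genes were compared per kilobase of exon, with lengths from GENCODE M21 for the transcripts that match RefSeq. Dusp1, on the minus strand of chromosome 17 (26505590 to 26508519) with 4 exons and 1.99 kb of exon, ranked first with a mean of 4851 normalized counts per kilobase. Its level was higher than that of 99.7% of all genes in the table, compared without regard to length. Dusp2 (chromosome 2, 127336159 to 127338376, plus strand, 1.62 kb) followed with 431 normalized counts per kilobase, 11.3-fold below Dusp1. The lowest library of Dusp1 (4470 per kilobase, deposited value) lay above the highest of Dusp2 (576 per kilobase), and the lowest of Dusp2 (315 per kilobase) above the highest of Dusp10 (231 per kilobase). Dusp10, Dusp5 and Dusp6 had means of 120.2, 119.8 and 118 normalized counts per kilobase and overlapped one another, as did Dusp6 and Dusp16 (91.6 per kilobase). Dusp4 and Dusp7 were lowest, with 7.26 and 7.17 normalized counts per kilobase, and overlapped each other. Dusp16 at its lowest (62.8 per kilobase) was above Dusp4 at its highest (16.2 per kilobase). Dusp1 made up 84.4% of the summed level per kilobase of the 8 members and Dusp2 7.49%. Spleens were digested with enzymes before the cells were sorted. Of 21 genes that tissue dissociation is known to induce, Fos and Jun had means of 17949 and 14073 deposited normalized counts in Ppef2+/+ DCs. The 21 means ranged from 78.1 for Socs3 to 32000 for Hspa1b. The part of the digestion in the level of Dusp1 was not tested.

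**Figure D1:**
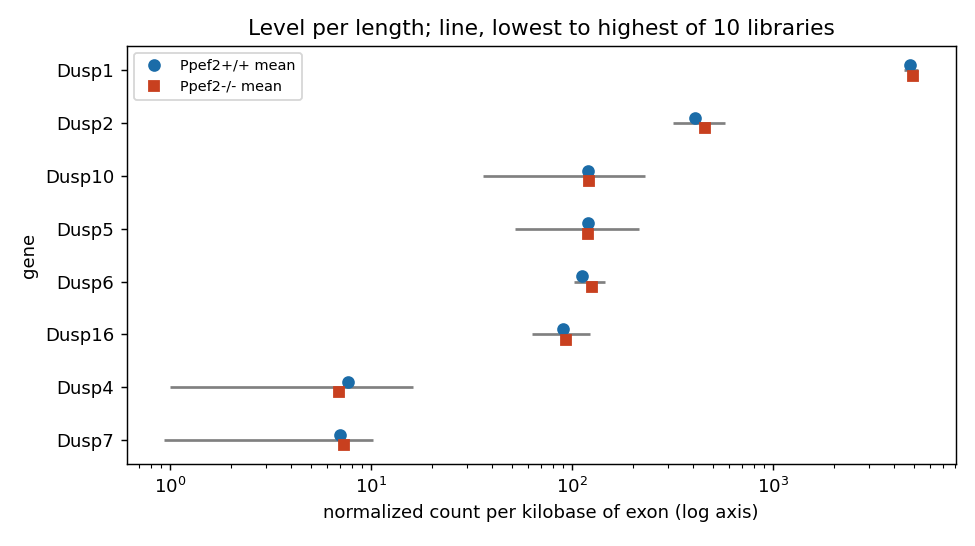
Level of each member per kilobase of exon (normalized counts, log axis). Circles are the means of 5 Ppef2+/+ and squares of 5 Ppef2-/- libraries, and lines span the lowest to the highest of 10 libraries (for Dusp1 deposited values, without the spread between sorts). Dusp1 stands at 4851 per kilobase and Dusp4 and Dusp7 at 7.26 and 7.17.

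The main question was whether loss of Ppef2 changed these levels. Across all genes, 1 of 10767 (0.00929%) passed an adjusted p of 0.05, and this gene was Ppef2. Of the 8 members, 0 passed with limma on log2(deposited normalized count + 1) with the sort as a block, and 0 of the 7 members with reads passed with limma's voom. At an unadjusted p under 0.05, 2 members, Dusp2 and Dusp6, were higher in Ppef2-/- DCs, beside 2.3% of all genes in that direction. Both also had higher values in Ppef2-/- than in Ppef2+/+ libraries in 5 of 5 sorts, as had 3.26% of all genes. Adjusted over all genes, their p was 0.995 in either case.

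Dusp2, a nuclear phosphatase first known from activated lymphoid cells, had levels of 513, 510, 743, 864 and 647 across sorts 1 to 5 of Ppef2+/+ mice. In Ppef2-/- mice the same sorts gave 577, 531, 844, 931 and 801. The genotypes overlapped over the sorts, but within each sort the Ppef2-/- library was the higher one, by 20.7 to 153.8 normalized counts. Ppef2+/+ DCs had a mean of 655 ± 152 (SD, n = 5). Ppef2-/- DCs had a mean of 737 ± 174 (SD, n = 5), which is 12.4% more. The limma estimate was 0.17 ± 0.06 (SE) on the log2 scale (unadjusted p = 0.011), with a 95% confidence interval of 1.03 to 1.23-fold. An exact permutation test that exchanged genotypes within sorts gave p = 0.0625, the smallest p that 5 sorts allow in a two-sided test. Without the sort as a block, 103 of 10767 genes (0.957%) passed, and Dusp2 was 1 of them with an adjusted p of 0.048 (limma). Once sort means were restored, the fit without a block called 1 of the 9615 genes with reads and Dusp2 did not pass (adjusted p = 1, limma).

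Dusp6, the cytoplasmic phosphatase that acts on ERK and that ERK signalling induces, had levels of 308, 316, 344, 284 and 309 in Ppef2+/+ and 335, 326, 408, 339 and 337 in Ppef2-/- libraries. The difference within a sort was 9.28 to 64.2 normalized counts, and the highest value of all was that of the Ppef2-/- library of sort 3. Ppef2+/+ DCs had a mean of 312 ± 21.7 (SD, n = 5). Ppef2-/- DCs had a mean of 349 ± 33.6 (SD, n = 5), which is 11.8% more. The limma estimate was 0.16 ± 0.07 (SE) on the log2 scale (unadjusted p = 0.041; 95% confidence interval 1.01 to 1.24-fold), and the exact permutation test within sorts gave p = 0.0625. Without the block the adjusted p of Dusp6 was 0.072 (limma).

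Other values were compared between genotypes as well. The list of 21 genes that tissue dissociation is known to induce held immediate early genes and the heat shock genes Hspa1a and Hspa1b. Of these 21, called the immediate early genes below, 0 passed the adjusted p. At an unadjusted p under 0.05 (limma), 6 were higher and 2 lower in Ppef2-/- DCs, the 2 being Hspa1a and Hspa1b. Over all genes 2.3% were higher and 1.99% lower. The median log2 difference of the 21 was 0.12, compared to 0.00 over all genes. The 6 of 6 pDC markers with a value summed to 1093 to 1227 deposited normalized counts in Ppef2+/+ and to 934 to 1065 in Ppef2-/- libraries. These values lack the spread between sorts, and none of the 6 markers passed the adjusted p. At an unadjusted p under 0.05 (limma), Tcf4 and Siglech were lower and 0 were higher, beside 1.99% and 2.3% of all genes. The median log2 difference of the 6 markers was -0.28. Tcf4 had means of 423 and 342 deposited normalized counts in Ppef2+/+ and Ppef2-/- DCs. Siglech had 157 and 131, and Ccr9 had 239 and 243. Ppef2-/- libraries were also the deeper ones in sorts 1 to 3. The part of these in the differences of Dusp2 and Dusp6 was not tested.

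The other nuclear members showed no common direction. Deposited values of Dusp1, whose product acts on p38, JNK and ERK, were 8894, 9927, 9120, 10062 and 9506 in Ppef2+/+ and 10412, 9380, 10186, 9244 and 9800 in Ppef2-/- libraries. The Ppef2-/- library was higher in sorts 1, 3 and 5 and lower in sorts 2 and 4. Its log2 difference was 0.05 ± 0.05 (SE), and the 95% confidence interval of 0.954 to 1.12-fold was the narrowest of the 8 members.

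Dusp5, which acts on ERK in the nucleus, had levels of 129, 158, 529, 472 and 191 in Ppef2+/+ and 147, 171, 428, 450 and 286 in Ppef2-/- libraries. It was higher in 3 and lower in 2 sorts of Ppef2-/- DCs, and the log2 difference was 0.00 ± 0.10 (SE; 95% confidence interval 0.864 to 1.16-fold), or 0.10 with the sort means put back. Exons of Dusp5 (chromosome 19, 53529109 to 53542431) share 547 bases with AC137853.2 on the other strand. Strand is not stated for the counting, so reads of both cannot be told apart.

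Dusp4 (chromosome 8, 34807297 to 34819894), a close relative of Dusp1, was low, with 2, 10, 16, 48 and 20 reads in Ppef2+/+ and 26, 11, 35, 34 and 5 reads in Ppef2-/- libraries. Its levels were 2.74, 13.6, 24.1, 44.4 and 19.9 in Ppef2+/+ and 12.1, 6.50, 32.8, 35.9 and 6.85 in Ppef2-/- libraries. The Ppef2-/- library was higher in sorts 1 and 3 and lower in the other sorts. The ratio of levels in sort 1, with 2 reads in the Ppef2+/+ library, was 4.41. Its 95% interval was 1.1 to 38.3 (exact binomial, which covers counting error only). The pair was picked for its low count, which the interval does not take into account. The log2 difference over all sorts was -0.15 ± 0.30 (SE; 95% confidence interval 0.586 to 1.38-fold), and -0.09 with the sort means put back. This interval contains the estimate for Dusp2.

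Dusp7, the relative of Dusp6, had the widest range of log2 ratios within sorts of all members, from -0.80 in sort 5 to 2.09 in sort 3 on deposited values. Its reads were 24, 16, 2, 26 and 31 in Ppef2+/+ and 45, 48, 35, 17 and 13 in Ppef2-/- libraries, and its levels 32.9, 21.8, 3.01, 24.0 and 30.9 compared to 20.9, 28.4, 32.8, 18.0 and 17.8. The Ppef2+/+ library of sort 3, with 2 reads, stood apart, as the other 9 lay between 17.8 and 32.9. The ratio of levels in sort 3 was 10.9 with a 95% interval of 2.80 to 93.6 (exact binomial, counting error only). This pair too was picked for its low count, which the interval does not take into account. Over all sorts the log2 difference was 0.12 ± 0.35 (SE; 95% confidence interval 0.657 to 1.79-fold), while it was 0.33 with the sort means put back and -0.38 without sort 3. The 5 genes outside the family with the most similar ratios within sorts were Pif1, Snord22, Dsel, Wfdc17 and Bambi, at a root mean square difference of 0.35 to 0.46 on the log2 scale over 5 sorts, and all were of low level (means of 9.59 to 21.4 deposited normalized counts). For Dusp1 the most similar genes were Narfl, Snrpf, Snrpa, Snrpb and Vipas39, at 0.03 to 0.05.

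The phosphatases that prefer JNK and p38 overlapped between genotypes as well. Dusp10 (chromosome 1, 184034381 to 184075636) had levels of 99.9, 194, 645, 458 and 268 in Ppef2+/+ and 131, 162, 576, 639 and 182 in Ppef2-/- libraries. The Ppef2-/- library was higher in sorts 1 and 4 and lower in sorts 2, 3 and 5. Its log2 difference was 0.03 ± 0.12 (SE; 95% confidence interval 0.857 to 1.21-fold) and changed sign, to -0.02, with the sort means put back. Dusp16 (chromosome 6, 134715468 to 134792625, minus strand) had levels of 446, 419, 609, 501 and 321 in Ppef2+/+ and 400, 404, 570, 629 and 383 in Ppef2-/- libraries. It was higher in sorts 4 and 5 of Ppef2-/- DCs only, with a log2 difference of 0.06 ± 0.08 (SE; 95% confidence interval 0.928 to 1.17-fold).

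**Figure D2:**
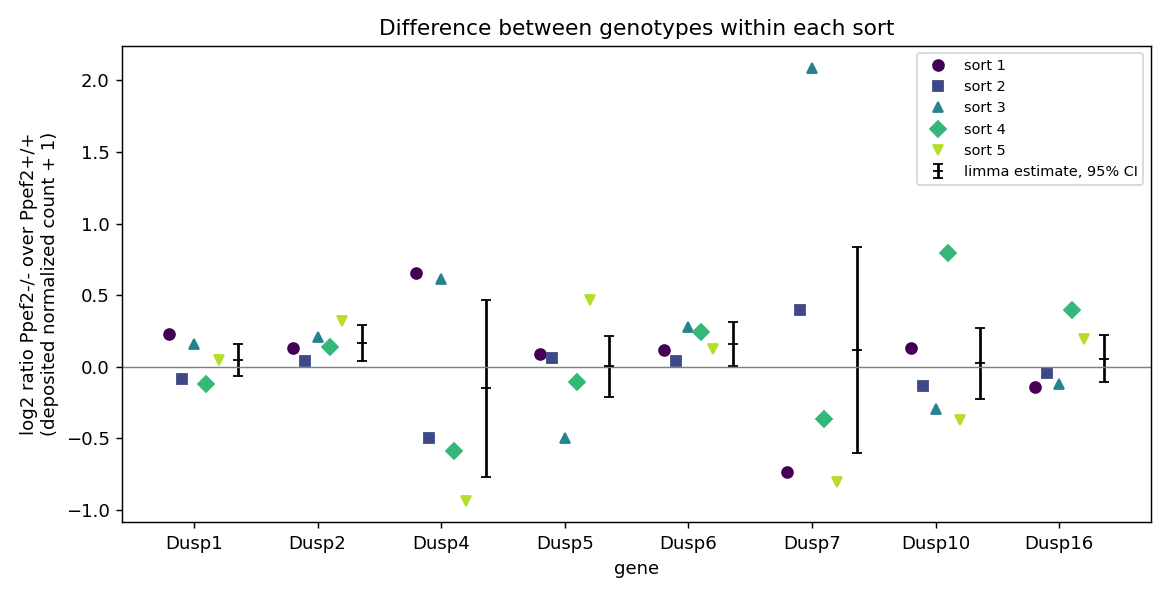
Log2 ratio of the Ppef2-/- over the Ppef2+/+ library within each of 5 sorts (points, deposited normalized count + 1), with the limma estimate and its 95% confidence interval (black). All 5 points of Dusp2 and of Dusp6 are above 0, and the points of the other members lie on both sides, with Dusp7 in sort 3 at 2.09.

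Levels of several members differed between sorts. This comparison was made after the values had been seen, on 9615 genes with levels. With limma's F test for the sort, 632 genes (6.57%) passed an adjusted p of 0.05, and of the 7 members with levels 5 passed, Dusp2, Dusp4, Dusp5, Dusp10 and Dusp16. With voom on reads the same 5 members passed, beside 8.06% of all genes. The mean of both libraries of a sort was highest in sort 3 or sort 4 and lowest in sort 1, 2 or 5 for each of the 5 members.

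Dusp10 had sort means of 115, 178, 610.5, 549 and 225 in sorts 1 to 5, a 5.3-fold span (adjusted p = 2.9e-11, limma F test). Both of its libraries of sort 3 and both of sort 4 lay above the other 6, in either genotype. Dusp5 had sort means of 138, 164, 479, 461 and 239, a 3.48-fold span (adjusted p = 3.7e-10, limma F test), again with the 4 libraries of sorts 3 and 4 above the other 6. Dusp2 had sort means of 545, 520.2, 793, 898 and 724, a 1.73-fold span (adjusted p = 4.2e-07, limma F test), and here the Ppef2-/- library of sort 5, at 801, lay among those of sorts 3 and 4.

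Dusp16 spanned 1.67-fold, from 352 in sort 5 to 589 in sort 3 (adjusted p = 0.00013, limma F test). Dusp4 spanned 5.42-fold, from 7.41 in sort 1 to 40.1 in sort 4 (adjusted p = 0.016, limma F test), but without sort 4 its adjusted p was 0.22. Dusp6, in contrast, kept sort means of 311 to 376, a 1.21-fold span (adjusted p = 0.59, limma F test). Dusp7 had sort means of 17.9 to 26.9 (adjusted p = 0.63, limma F test), with its lowest in sort 3. For Dusp1 the levels of the sorts are unknown.

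**Figure D3:**
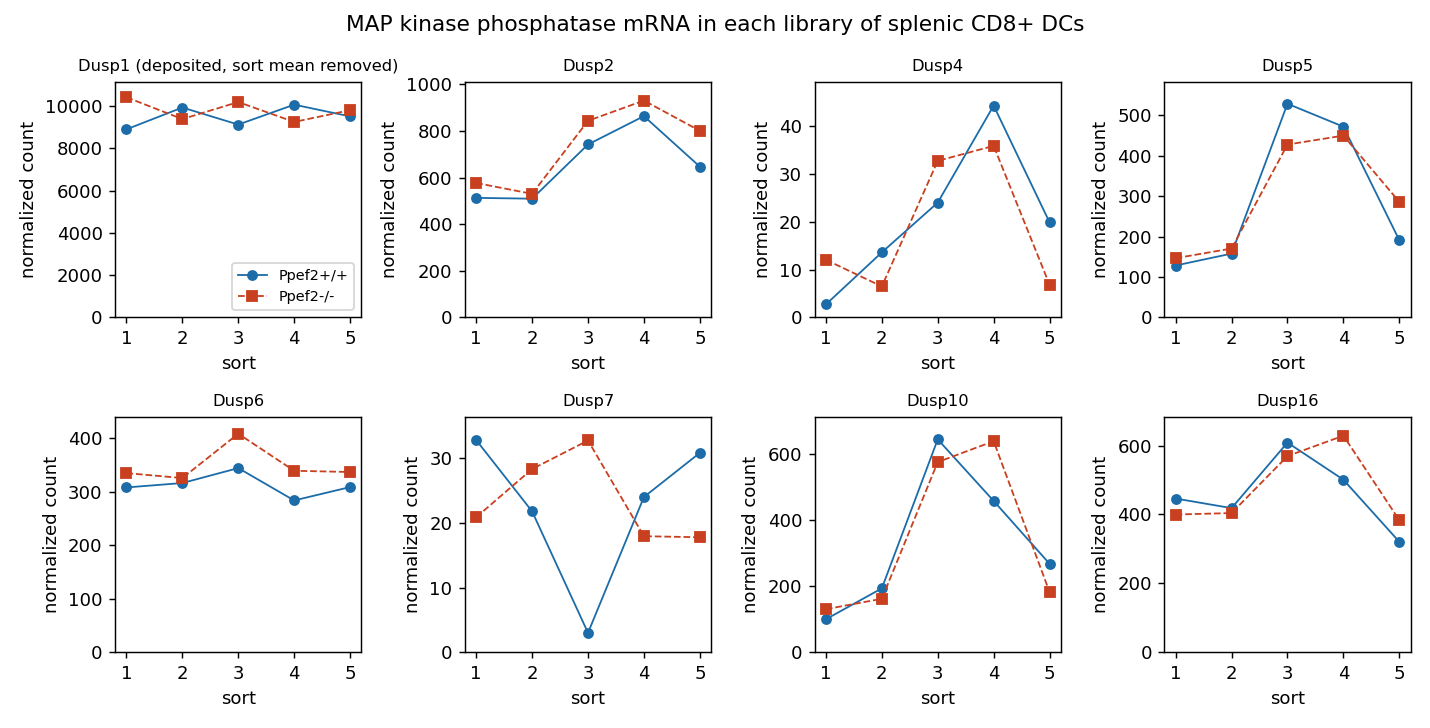
Value of each member in each library, by sort (x axis) and genotype (circles and full lines Ppef2+/+, squares and broken lines Ppef2-/-). Values are normalized counts with the sort mean put back, except for Dusp1 (deposited, sort mean removed), and lines only join the libraries of a genotype. Dusp5 and Dusp10 are high in sorts 3 and 4 in both genotypes, while Dusp6 stays between 284 and 408.

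**Figure D4:**
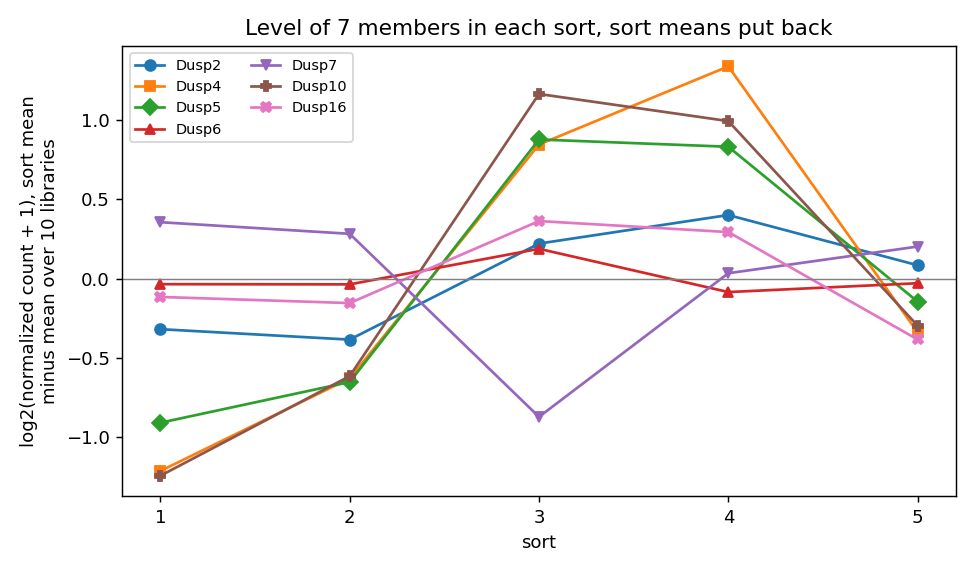
Level of 7 members in each sort, as the mean of both genotypes on the log2 scale minus the mean of the gene over 10 libraries. Dusp10 runs from -1.24 in sort 1 to 1.16 in sort 3, whereas Dusp6 stays within -0.09 to 0.19. Lines join the sorts of a gene and carry no order.

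Other values differed between sorts too. Both libraries of a sort together held 5917839, 5008132, 3630703, 4285735 and 3573281 reads in sorts 1 to 5. The 6 of 7 cDC2 markers with a value summed to 777, 985, 1317, 1318 and 1181 normalized counts, which without Irf4 was 537, 602, 653, 622 and 757. Irf4, a transcription factor of DCs named here after its values were seen, had sort means of 240.0, 383, 664, 696 and 424 (adjusted p = 6.4e-09, limma F test). The summed levels of macrophage and monocyte markers (9 of 10 with a value) were 2185 to 2357 and those of pDC markers (6 of 6) 986 to 1230 over the sorts. Their part in the differences between sorts was not tested, and handling, animals and library preparation of a sort cannot be told apart.

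The rest of the pathway was examined by lists. None of 10 MAP kinases, 7 MAP2 kinases, 12 effector kinases and scaffolds, 8 ERK feedback genes, 15 atypical dual-specificity phosphatases or 6 other phosphatases of MAP kinases with a value passed the adjusted p between genotypes (limma). At an unadjusted p under 0.05, 2 ERK feedback genes, Ier3 and Egr1, were higher and 2 effector kinases, Rps6ka2 and Rps6ka5, were lower in Ppef2-/- DCs, beside 2.3% of all genes that were higher and 1.99% that were lower. Ier3 and Egr1 are also in the list of immediate early genes above and were counted there as higher. The medians of the lists lay between -0.08 and 0.14 on the log2 scale, beside 0.00 over all genes. Genes of the kinases that the family acts on gave the following values. Mapk14 (p38) had means of 2179 and 2196 deposited normalized counts in Ppef2+/+ and Ppef2-/- DCs. Log2 differences were -0.11 ± 0.08 (SE) for the ERK gene Mapk3, -0.07 ± 0.08 for the JNK gene Mapk8 and 0.01 ± 0.07 for the JNK gene Mapk9. The upstream kinases of p38, Map2k3 and Map2k6, had log2 differences of 0.04 ± 0.07 and 0.00 ± 0.07 (SE), and Mapkapk2, a kinase that p38 activates, 0.07 ± 0.06.

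Feedback and immediate early genes gave the following values between genotypes. Egr1, a zinc finger factor that ERK induces, had a log2 difference of 0.26 ± 0.10 (SE; unadjusted p = 0.014; higher in 4 of 5 sorts). Fos and Jun, which form AP-1, had 0.05 ± 0.06 and 0.09 ± 0.09 (SE), and Zfp36, an RNA-decay factor, 0.08 ± 0.06. The ERK pathway inhibitors Spry1 and Spred1 had 0.02 ± 0.19 and 0.11 ± 0.10 (SE). Ier3, named after its values were seen, was higher in 5 of 5 sorts by 0.48 ± 0.12 (SE; unadjusted p = 0.0011; adjusted p = 0.835 with limma). Dusp9 and Spry2 have no value here.

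Between sorts, the relatives of the family that passed the F test were Dusp8, the remaining JNK-directed phosphatase of the typical class, and 3 of 14 atypical phosphatases with levels, Dusp3, Dusp18 and Ptp4a1. Dusp8 had levels of 1.37, 10.9, 39.1, 80.4 and 6.97 in Ppef2+/+ and 4.18, 1.18, 61.8, 52.8 and 19.2 in Ppef2-/- libraries (adjusted p = 2.4e-05, limma F test). Its 4 libraries of sorts 3 and 4 lay above the other 6, although 2 libraries rested on 1 and 2 reads. Dusp18 had sort means of 24.2, 38.5, 190.1, 179.9 and 50.7 (adjusted p = 4.3e-10, limma F test), and Dusp3 spanned 1.94-fold (adjusted p = 0.00064, limma F test). In the other lists, 1 of 9 MAP kinases (Mapk6), 0 of 7 MAP2 kinases, 0 of 9 effector kinases and scaffolds and 0 of 5 other phosphatases with levels passed. Over all 9615 genes with levels 6.57% passed, and counts in lists this short cannot be told apart from that share. Of the ERK feedback genes, 1 of 7 passed, namely Spry1 with sort means of 19.5, 32.02, 78.1, 56.5 and 29.1 (adjusted p = 0.00028, limma F test). Of the immediate early genes only 4 of 21 had levels, and 3 of these passed, Egr2, Egr3 and Socs3.

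**Figure D5:**
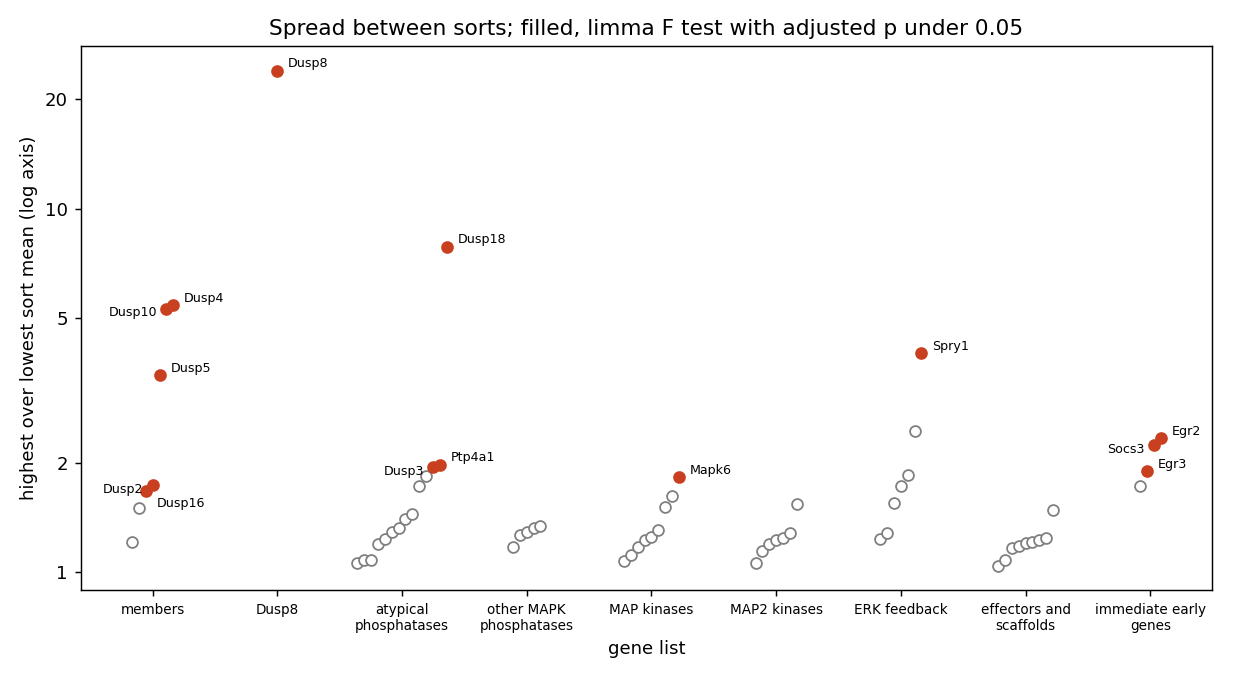
Highest over lowest sort mean (log axis) of the members with levels and of the genes of each related list, 1 point per gene. Filled and named points passed limma's F test for the sort with an adjusted p under 0.05. Dusp8 spans 24.0-fold and the MAP2 kinases at most 1.54-fold.

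The genes outside the family most like Dusp10 over the 10 libraries, chosen after its values had been seen, were Arrdc3, Zbtb10, Ctla4, Ifrd1 and Maff. Their centred log2 levels differed from those of Dusp10 by a root mean square of 0.21 to 0.26. Arrdc3, an arrestin-domain protein, lay 1.44 below its mean in sort 1 and 1.05 above it in sort 3 on the log2 scale. Ctla4, an inhibitory receptor known from T cells, lay 1.22 below its mean in sort 1 and 1.22 above it in sort 4. All 10 values share library and sort, so that this likeness is a description only.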

How the data were processed

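mRNA was measured in 5 Ppef2+/+ and 5 Ppef2-/- libraries, assigned by the genotype and sort in their labels. Per the study's methods, the authors aligned 50-base single-end reads to mm10 with HISAT, whereas the processing notes of the authors list TopHat2 2.0.3, Partek 6.6, R 3.0.2 and DESeq2. The authors counted reads per RefSeq gene, normalized the counts with DESeq2 and set them to at least 1, and genes with a larger genotype mean under 10 were removed. The deposited values are therefore a normalized count signal and not raw counts. All 10 columns were used and 0 were left out.

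For 10721 genes with no value set to 1, both libraries of a sort sum to the same value in all sorts (relative spread at most 6.3e-06), so the mean of each sort had been removed, a step the methods do not name. The sort numbers of the labels pair the libraries, and deviations from the genotype means correlate with r = -1.000 within each sort. Whole reads were calculated back from the steps of low values for genes under 1000 normalized counts. Of 9627 such genes, 9615 (89.3% of the table) had exactly 1 set of reads, 12 had none, and 1140 genes above the ceiling, Dusp1 among them, were not resolved. The value of 1 read was 0.464 to 1.50 normalized counts.

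Genotypes were compared with limma 3.58.1 in R 4.3.3 (eBayes with trend, two-sided) on log2(value + 1) with the sort as a block and Benjamini-Hochberg adjustment over 10767 genes, and single members by exact permutation within sorts (32 exchanges). Fold changes on this scale understate changes of low genes. Since the sort mean was removed as an amount, ratios of deposited values within a sort also differ from ratios of levels, in either direction. For Dusp10 in sort 4 the log2 ratio was 0.80 on deposited values and 0.48 with the sort mean put back. For Dusp4 in sort 1 it was 0.66 and 1.81. The fit was checked on simulated data. Each library is a pool of 3 mice, and each sort holds 1 library of each genotype. With the block, p-values between genotypes measure how the difference within a sort varies over the 5 sorts. The F test sets differences between sorts against that same variation. Members, gene lists and tests were chosen with earlier results of these data known. The genes named were the 8 members, Ppef2, a fixed set from the related lists (of which 1 gene is not reported here), any list gene past an adjusted p of 0.05, and the 5 genes with ratios most like those of Dusp7 (the member with the widest range) and of Dusp1. Rps6ka2, Rps6ka5, Ier3, Irf4, Mapk6, Dusp18, Ptp4a1, Egr2, Egr3, Socs3 and the genes like Dusp10 were named after their values were seen, and the comparison between sorts was added then. The fits were repeated with another pseudocount, scaling or minimum mean, no block, no trend, no log, sort means put back, voom on reads, and each sort left out. Those with sort means put back and with voom were fitted and adjusted over 9615 genes.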

Additional observations from a re-analysis of the deposited data

Results flagged for a closer look

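Of 16 groups of 5 libraries (8 members in 2 genotypes), 1 held a library far from the others by Dixon's criterion, where chance gives about 0.8 of 16. This was Dusp6 in the Ppef2-/- library of sort 3, with a level of 408.4 compared to 325.6 to 339.2 in the other 4 Ppef2-/- libraries.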

How the results depend on the processing

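Over the alternatives other than leaving out a sort, 72 of 76 values of single members kept their direction and their side of the threshold. Without a block, without a trend or with another minimum mean, the log2 difference is that of the main fit by construction. Only the side of the threshold could change in those fits. The number of genes called between genotypes was 1 with the sort as a replicate block and 103 with no replicate block, 0 without a trend (462 genes had an unadjusted p under 0.05 with the trend), 2 with sort means put back and the block, and 3 with voom. With sort means put back and no replicate block it was 1, and Dusp2 then had an adjusted p of 1. The fits with sort means put back and with voom cover only the 9615 genes with reads. The number of members called was 0 with the replicate block and 1 without it on deposited values, namely Dusp2 (log2 difference 0.17). Without the block, residual degrees of freedom are counted that the removed sort means no longer hold. Dusp7 changed sign to -0.024 with voom, and Dusp10 to -0.022 with sort means put back, with and without the block. With each sort left out, the genes called numbered 1 to 4 (2 without sort 1 and 4 without sort 4), the members called 0 to 0, the members that differ between sorts 4 to 5 and the genes that differ between sorts 438 to 752. The log2 difference then ranged from -0.0001 to 0.087 for Dusp1, -0.35 to 0.045 for Dusp4, -0.11 to 0.13 for Dusp5, -0.38 to 0.35 for Dusp7, -0.17 to 0.12 for Dusp10 and -0.029 to 0.11 for Dusp16, and stayed above 0 for Dusp2 (0.13 to 0.20) and Dusp6 (0.13 to 0.19). For the reversals the cause was not tested. Dusp4 and Dusp7 rest on 2 to 48 reads per library.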
